A study of Mus musculus with 82 samples.

Results

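The genes described here code for the enzymes of polyamine synthesis and methionine salvage and for a regulator of the first of them. The set holds 8 of the 55401 genes in the count tables, taken by name for their place in the pathway: Odc1, Amd1 and Srm for synthesis, Azin1 for regulation, and Mtap, Mri1, Apip and Adi1 for salvage. All 8 had enough counts to be tested at 24 h and at 48 h. Mtap was among the genes the study itself picked from these samples, so its values are a description and not independent evidence.

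As background, ornithine decarboxylase (Odc1) makes putrescine from ornithine, and spermidine synthase (Srm) turns putrescine into spermidine with the aminopropyl group of decarboxylated S-adenosylmethionine, which Amd1 supplies. Each aminopropyl transfer leaves methylthioadenosine, and the salvage enzymes turn it back into methionine. Cells that start to grow are known for a high demand for polyamines, and the pathway has been studied in vascular smooth muscle for that reason.

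The study asked how the receptors for epidermal growth factor (EGF), angiotensin II (AngII) and thromboxane A2 act alone and together on gene expression. RNA was sequenced from primary vascular smooth muscle cells of the aorta (aVSMC) of C57BL/6 mice held without serum for 24 h before treatment. The treatments were EGF at 10 µg/L, AngII at 10 nM and the thromboxane receptor agonist U46619 at 1 µM, and control cells got none of them. At 24 h there were 7 groups of 6 libraries, with cells of the same 6 mice in every group: untreated cells, each agent alone, EGF with either of the others, and all 3 agents (EGF+AngII+U46619). At 48 h there were 10 control and 10 EGF libraries, and 5 for each of the other agents, alone and with EGF. The 48 h libraries came in 2 sequencing batches of 5 culture sets each: both held controls and EGF, the first also the 2 groups with U46619 and the second the 2 groups with AngII. The sample labels give 5 mice for these 10 culture sets.

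Total counts ran from 16483529 to 20818809 per library at 24 h and from 19936925 to 33916114 at 48 h. Levels are given as FPM (fragments per 1000000 counted, scaled with TMM factors). The 24 and 48 h libraries were fitted separately, and no difference between the times was tested. A gene was called where the false discovery rate (FDR) over all tested genes was below 0.05 in both edgeR and DESeq2 and its mean reached 5 FPM in a group compared. FDR values printed are those of edgeR, and each log2-fold change is followed by its standard error (SE). The log2-fold changes of each treated group against control use the same control libraries, so these comparisons are not independent of each other.

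Before the results, 2 libraries stand apart. The EGF+AngII+U46619 library of mouse 3 at 24 h had a TMM factor of 0.646, while the other 24 h libraries lay between 0.836 and 1.13. The 48 h control library of culture set B2-4 (set 4 of the second batch) went against its label set: its deviations from the group mean correlated with the other libraries of set B2-4 at r = -0.329 to -0.320. The same library correlated with the treated libraries of set B2-2 at r = 0.895 to 0.936. For comparison, the control labelled B2-2 correlated with the treated libraries of its own set at 0.589 to 0.618. All labels were kept as given, and values without these libraries are printed where they change a call.

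The cell type label was checked against markers. Of 6 smooth muscle markers 4 were tested. The other 2, Tagln and Cnn1, lie on chromosome 9 and are listed at 0 in every library, as are all 7075 genes of chromosomes 9, X, Y and MT, so these files cannot show them. Acta2 was the most abundant of the 4, whose summed level in the 24 h controls had a lowest value of 1249 FPM, a median of 2610 and a highest of 5370. That sum is mostly Acta2, with a mean of 2602 FPM in these controls, and thus says little of the other markers. Over the 24 h libraries Smtn ran from 47.5 to 226 FPM and Lmod1 from 9.31 to 391 FPM. Myh11 was uneven, at 0.1486, 29.5 and 276 FPM (lowest, median, highest) over the 24 h libraries. Markers of other cells were present as well: endothelial markers summed to 4.85, 155.5 and 1162 FPM (lowest, median, highest) in the same controls, with Pecam1 the most abundant. Cdh5 lies among the last 661 genes of chromosome 8 in table order, which are all at 0 in every library, so its 0 cannot be read as absence. Adventitial fibroblast markers summed to 376, 686 and 3053 FPM, with Dcn the most abundant.

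At 24 h, U46619 raised the 3 synthesis enzymes, the regulator Azin1 and the salvage enzyme Mtap, and lowered the salvage enzyme Adi1. With U46619 alone 6 of the 8 genes were called, 5 higher and 1 lower, where 27.6% of all 14653 tested genes were called, 13.5% higher and 14.1% lower. The median log2-fold change of the 8 was 0.63, that of all tested genes -0.06. With EGF+U46619 the same 5 rose and Adi1 fell, against 33.1% of all genes called, 17.0% higher and 16.1% lower. The medians there were 0.76 for the 8 and -0.05 for all genes. With EGF+AngII+U46619 5 genes were called higher and none was called lower, with Adi1 at -0.29. Of all genes 34.3% were called there and 18.1% called higher, with medians of 0.73 for the 8 and -0.04 for all genes. The shares of all genes are given as a scale for the counts. They are not a test, because the 8 genes were chosen with earlier results of these data known.

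EGF and AngII without U46619 gave no call among the 8 genes at 24 h. For EGF 0 of 8 were called by edgeR and DESeq2 together, against 0.0273% of all genes (4 genes), and 2 of the 8 had an unadjusted edgeR and DESeq2 p below 0.05, against 17.4% of all genes. The study itself reported far more than 4 genes regulated by EGF at 24 h. The count of 0 of 8 therefore does not show that EGF left these genes unchanged. AngII gave 0 of 8, against 0.0% of all genes, and 0 of the 8 with an unadjusted p below 0.05 by both tools. Its values ran from -0.06 for Mri1 to 0.06 for Odc1. EGF+AngII gave 0 of 8 by both tools together, against 3.11% of all genes, with 3 of the 8 below 0.05 unadjusted, against 24.3% of all genes. In that comparison Azin1 lay at the border: its log2-fold change was 0.50 (SE 0.15), higher in 6 of 6 mice, with an FDR of 0.0542 in edgeR and 0.0229 in DESeq2. By DESeq2 alone the EGF+AngII count was 1 (Azin1). Without mouse 6 it was 1 as well, with Azin1 at 0.65. Without the EGF+AngII+U46619 library of mouse 3 it was 2 (Azin1 at 0.50 and Mtap at 0.26).

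**Figure D1:**
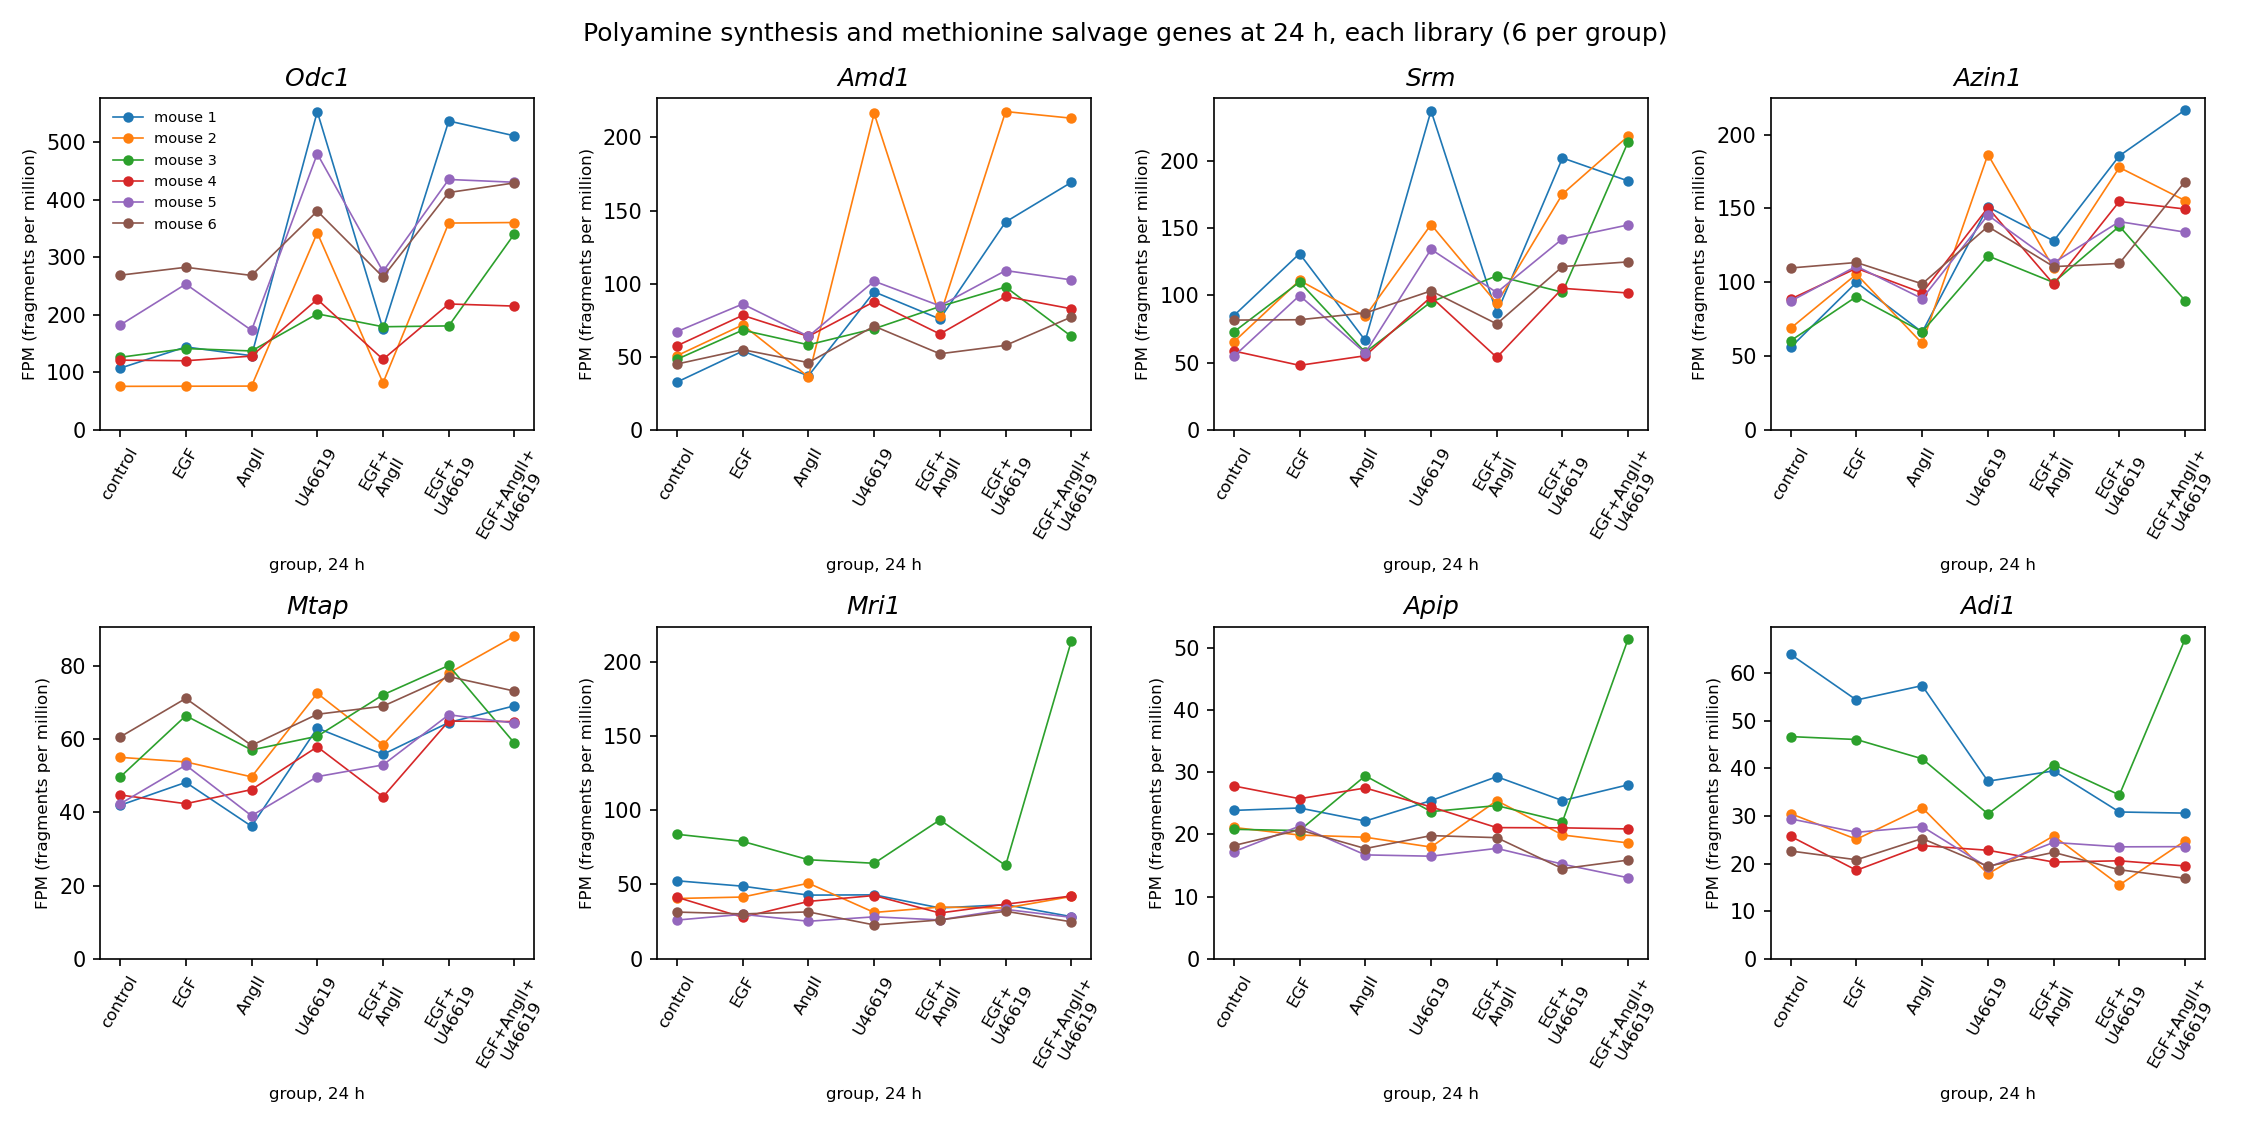
Level (FPM) of each of the 8 genes in each 24 h library, 1 line per mouse over the 7 groups. The groups with U46619 hold the highest Odc1 levels (552 FPM in mouse 1), and mouse 3 stands apart in Mri1 with 214 FPM in the EGF+AngII+U46619 group.

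Odc1 (ENSMUSG00000011179, GRCm38 chr12:17544794-17551505, plus strand, 3405 bp of exons) codes for the first and rate-limiting enzyme of the pathway. In the 24 h controls its lowest, median and highest levels were 75.8, 124 and 269 FPM. With U46619 they were 202, 361 and 552 FPM, with EGF+U46619 180.7, 386 and 536 FPM, and with EGF+AngII+U46619 215, 394 and 511 FPM. Every U46619 group overlapped the controls, whose highest was mouse 6 at 269 FPM: the lowest treated library was that of mouse 3 with U46619 and with EGF+U46619 and that of mouse 4 with EGF+AngII+U46619. Within each mouse the level was higher in all 3 of these groups. The log2-fold change was 1.35 (SE 0.23, FDR = 6.12e-05) with U46619, the largest of the 8 genes, and 6 of 6 mice showed it. It was 1.32 (SE 0.23, FDR = 3.79e-05, 6 of 6 mice) with EGF+U46619. With all 3 agents it was 1.44 (SE 0.23, FDR = 1.01e-05, 6 of 6 mice). The mice differed in size of change with U46619, from 0.50 to 2.36 with a median of 1.15 on log2(FPM + 0.5). With EGF alone the levels were 76.0, 143 and 282 FPM and the log2-fold change was 0.18 (SE 0.22, FDR = 0.699, higher in 5 of 6 mice). AngII gave 76.2, 133 and 268 FPM and 0.06 (SE 0.22, FDR = 1.00, higher in 4 of 6). EGF+AngII gave 81.8, 177.2 and 275 FPM and 0.31 (SE 0.22, FDR = 0.395, higher in 5 of 6).

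Amd1 (ENSMUSG00000075232, chr10:40287458-40302186, minus strand, 3542 bp of exons) codes for S-adenosylmethionine decarboxylase. Its control levels were 32.8, 49.6 and 67.3 FPM. They stood at 69.2, 91.1 and 216 FPM with U46619, and this group did not overlap the controls. Mouse 2 was far above the rest there, at 216 FPM where the other 5 lay between 69.2 and 102. With EGF+U46619 the levels were 57.9, 103 and 218 FPM, and with EGF+AngII+U46619 they were 64.0, 92.8 and 213 FPM, again with mouse 2 the highest. The log2-fold change was 1.00 (SE 0.24, FDR = 0.00164, 6 of 6 mice) with U46619. EGF+U46619 gave 1.16 (SE 0.24, FDR = 0.000254, 6 of 6) and EGF+AngII+U46619 1.16 (SE 0.24, FDR = 0.000233, 6 of 6). Amd1 therefore rose in every mouse under each of the 3. With EGF its levels were 53.9, 70.1 and 86.1 FPM and the value was 0.45 (SE 0.23, FDR = 0.31, higher in 6 of 6 mice).

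Srm (ENSMUSG00000006442, chr4:148591503-148594993, plus strand, 1599 bp of exons) codes for spermidine synthase. The controls held 54.7, 69.2 and 85.0 FPM, a narrow range. All 3 U46619 groups lay wholly above it: 95.2, 119 and 237 FPM with U46619, 102, 132 and 202 FPM with EGF+U46619, and 102, 168.8 and 218 FPM with EGF+AngII+U46619. Its log2-fold change was 0.93 (SE 0.17, FDR = 0.000155, 6 of 6 mice) with U46619. It reached 0.99 (SE 0.17, FDR = 4.23e-05, 6 of 6) with EGF+U46619 and 1.22 (SE 0.17, FDR = 2.48e-06, 6 of 6) with EGF+AngII+U46619. EGF alone gave 48.1, 105 and 131 FPM and 0.42 (SE 0.17, FDR = 0.181, higher in 5 of 6 mice), with mouse 4 the one that went the other way, from 58.7 to 48.1 FPM.

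Azin1 (ENSMUSG00000037458, chr15:38487427-38519266, minus strand, 6256 bp of exons) codes for antizyme inhibitor 1, which binds the antizymes that lead ornithine decarboxylase to breakdown and so spares the enzyme. The control levels were 56.0, 78.1 and 110 FPM. With U46619 they were 118, 148.01 and 186.5 FPM and with EGF+U46619 113, 147.96 and 185.7 FPM, both above every control. With EGF+AngII+U46619 they were 87.6, 152.5 and 217 FPM, and mouse 3 at 87.6 FPM lay within the control range. Azin1 rose by a log2-fold change of 0.92 (SE 0.15, FDR = 4.84e-05, 6 of 6 mice) with U46619. EGF+U46619 gave 0.96 (SE 0.15, FDR = 1.35e-05, 6 of 6) and EGF+AngII+U46619 0.94 (SE 0.15, FDR = 1.27e-05, 6 of 6), so the 3 values were alike within their SE. EGF alone gave 90.3, 108 and 113 FPM and 0.43 (SE 0.15, FDR = 0.139, higher in 6 of 6 mice).

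Mtap (ENSMUSG00000062937, chr4:89137122-89181081, plus strand, 3226 bp of exons) codes for methylthioadenosine phosphorylase, which opens the salvage pathway. Its levels were 41.9, 47.2 and 60.6 FPM in the controls and 49.8, 61.9 and 72.5 FPM with U46619. With EGF+U46619 they were 64.5, 71.9 and 80.1 FPM, above every control, and with EGF+AngII+U46619 58.9, 66.9 and 88.1 FPM. Its log2-fold changes were the smallest of the 5 genes that rose: 0.34 (SE 0.10, FDR = 0.0079, 6 of 6 mice) with U46619. With EGF+U46619 it was 0.56 (SE 0.10, FDR = 5.22e-05, 6 of 6), and with all 3 agents 0.52 (SE 0.10, FDR = 9.67e-05, 6 of 6). EGF gave 0.18 (SE 0.10, FDR = 0.328, higher in 4 of 6 mice). With no filter on low values, the U46619 call of Mtap was lost at the same log2-fold change of 0.34.

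Adi1 (ENSMUSG00000020629, chr12:28675231-28682175, plus strand, 1886 bp of exons) codes for acireductone dioxygenase 1, late in the salvage pathway. It is the 1 gene of the 8 that was called lower. The controls held 22.6, 29.9 and 64.0 FPM, with mouse 1 at 64.0 and mouse 3 at 46.7 above the other 4. With U46619 the levels were 17.8, 21.1 and 37.3 FPM and with EGF+U46619 15.5, 22.1 and 34.4 FPM, so the groups overlapped while each mouse was lower than its own control. The log2-fold change was -0.52 (SE 0.14, FDR = 0.00543, lower in 6 of 6 mice) with U46619 and -0.56 (SE 0.14, FDR = 0.00253, lower in 6 of 6) with EGF+U46619. With EGF+AngII+U46619 it was -0.29 (SE 0.14, FDR = 0.102), lower in 5 of 6 mice. EGF gave -0.21 (SE 0.14, FDR = 0.445) and EGF+AngII -0.30 (SE 0.14, FDR = 0.193), each lower in 6 of 6 mice and not called. With EGF+AngII+U46619 the mouse that differed was mouse 3, with 67.2 FPM where the other 5 lay between 16.9 and 30.6. Without mouse 3 Adi1 was called at -0.50 in that comparison, and without only its library at -0.49, which makes 6 of the 8 genes called in either case. Without mouse 1 the value was -0.14.

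Mri1 (ENSMUSG00000004996, chr8:84249906-84257326, minus strand, 3273 bp of exons), the methylthioribose-1-phosphate isomerase gene, and Apip (ENSMUSG00000010911, chr2:103073675-103092644, plus strand, 1000 bp of exons), the gene of methylthioribulose-1-phosphate dehydratase, act after Mtap and before Adi1. Mri1 held 26.0, 41.0 and 83.8 FPM in the controls and was not called in any 24 h comparison, with -0.21 (SE 0.20, FDR = 0.413, lower in 4 of 6 mice) for U46619. Mouse 3 had the highest Mri1 level in each of the 7 groups, from 62.8 FPM with EGF+U46619 to 214 FPM with EGF+AngII+U46619. The last value carries the log2-fold change of that group, which was 0.16 (SE 0.20, FDR = 0.543) with all mice, -0.20 without mouse 3 and 0.46 with no replicate block. Apip held 17.2, 20.9 and 27.8 FPM in the controls and its U46619 value was -0.02 (SE 0.16, FDR = 0.934, lower in 3 of 6 mice). Its EGF+AngII+U46619 value of 0.12 (SE 0.16, FDR = 0.579) became -0.19 without mouse 3, whose library had 51.4 FPM. Neither Mri1 nor Apip was thus called at 24 h.

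**Figure D2:**
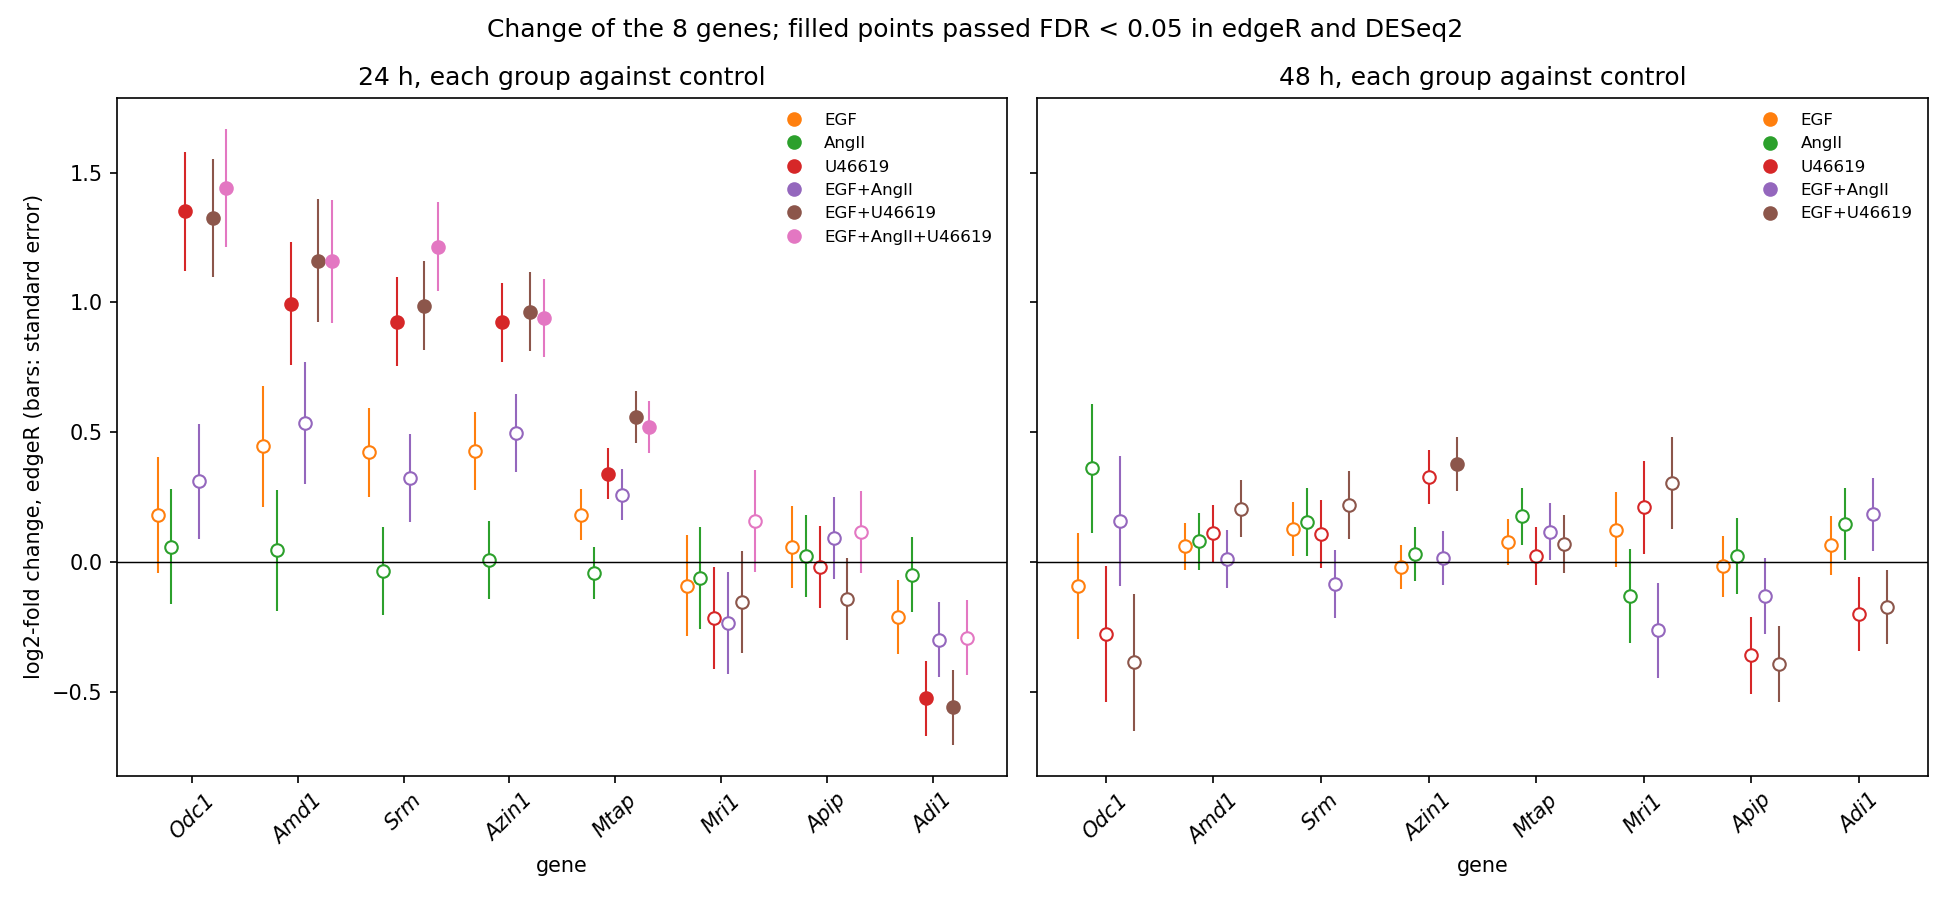
Log2-fold change of each gene against control (points) with its standard error (bars) at 24 h (left) and 48 h (right), filled where called by edgeR and DESeq2 together. At 24 h the filled points run from 0.34 to 1.44 for the 5 genes that rose and lie at -0.52 and -0.56 for Adi1, and at 48 h the single filled point is Azin1 at 0.38.

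The mice differed before any treatment. The highest 24 h control level of Odc1 was 3.55 times the lowest, and for Mri1 and Adi1 the ratio was 3.22 and 2.82. Srm and Mtap were the most even, with ratios of 1.55 and 1.44. This spread is why the mouse was kept as a replicate block. With no replicate block, U46619 alone gave 4 calls among the 8 (Odc1, Amd1, Srm and Azin1), without Mtap at 0.33 and Adi1 at -0.57. EGF+U46619 gave 5 without the block, since Adi1 at -0.61 was not called. The shares of all genes given above are from the fit with the block and are no scale for these counts.

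The order of the group means at 24 h was read against their spread. That spread is over mice and leaves out the pairing by mouse, so a small gap here does not show that groups are alike. For Odc1 it ran from EGF+AngII+U46619 (381 ± 101.1 FPM, mean ± SD, n = 6) through U46619 (364 ± 138) and EGF+U46619 (357 ± 135) to EGF+AngII (183.3 ± 76.5), EGF (170 ± 80.5), AngII (151.98 ± 64.8) and control (147 ± 69.0). Here 1 gap exceeded the larger SD of its 2 groups, that between EGF+U46619 and EGF+AngII. Azin1 had 2 such gaps, between U46619 (148.2 ± 22.4) and EGF+AngII (110 ± 10.6) and between EGF (105 ± 8.56) and AngII (78.7 ± 16.9). Amd1 had 1, between EGF (68.9 ± 12.8) and AngII (50.9 ± 12.9). Over the 8 genes, 4 of 48 neighbouring pairs differed by more than the larger SD, and the U46619 groups took the first 3 places for Odc1, Amd1, Srm, Azin1 and Mtap. For Srm the order was EGF+AngII+U46619 (166.2 ± 47.8), EGF+U46619 (142 ± 40.2), U46619 (137 ± 54.1), EGF (97.0 ± 28.9), EGF+AngII (88.5 ± 20.9), control (69.8 ± 12.3) and AngII (68.0 ± 14.3). Adi1 ran the other way, from control (36.5 ± 15.8) and AngII (34.7 ± 12.9) down to U46619 (24.5 ± 7.75) and EGF+U46619 (23.9 ± 7.32).

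Levels of different genes were compared per kb of exon. In the 24 h controls Srm (43.6 ± 7.66 FPM per kb, n = 6) and Odc1 (43.1 ± 20.3) stood above the rest. Apip had 21.5 ± 3.87 FPM per kb and Adi1 19.3 ± 8.39. Mtap (15.2 ± 2.33), Amd1 (14.2 ± 3.29), Mri1 (14.0 ± 6.31) and Azin1 (12.5 ± 3.26) were close together. With EGF+AngII+U46619 Odc1 stood at 112 ± 29.7 and Srm at 104 ± 29.9 FPM per kb, so both stayed first and their difference lay within the SD.

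The comparison of EGF+U46619 with EGF asks what U46619 adds to EGF. Here 5 of the 8 were called, all higher, against 13.2% of all genes and 6.97% called higher. Mtap is among the 5, and this difference was part of the rule by which the study picked it from these samples. The median log2-fold change was 0.46 for the 8 and 0.00 for all genes. Odc1 rose by 1.14 (SE 0.23, FDR = 0.000931, 6 of 6 mice). Amd1 rose by 0.71 (SE 0.23, FDR = 0.0337, 6 of 6), Srm by 0.56 (SE 0.17, FDR = 0.0208, 5 of 6), Azin1 by 0.54 (SE 0.15, FDR = 0.0132, 5 of 6) and Mtap by 0.38 (SE 0.10, FDR = 0.00843, 6 of 6). Adi1 stood at -0.35 (SE 0.14, FDR = 0.0965, lower in 5 of 6 mice). This count depended on single mice and on the block. With no replicate block it was 0, with Odc1 at 1.07. Without mouse 1 it was 3 (Odc1, Azin1 and Mtap), and without mouse 2, mouse 4 or mouse 5 it was 1 each (Odc1). The shares of all genes given above are from the fit with all mice and the block and are no scale for these counts. Whether calls fell for all genes as well cannot be read from them. The log2-fold changes moved less than the calls: without mice 2, 4 and 5 in turn Amd1 stood at 0.53, 0.81 and 0.78 and Srm at 0.55, 0.45 and 0.57. Azin1 stood at 0.49, 0.53 and 0.56 and Mtap at 0.35, 0.32 and 0.37. Without mouse 1 Amd1 was at 0.57 and Srm at 0.55, neither called. With no filter on low values Mtap (0.36) was not called, and without the EGF+AngII+U46619 library of mouse 3 Adi1 (-0.35) was called beside the 5.

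The reverse comparison, EGF+U46619 with U46619, asks what EGF adds to U46619. Here edgeR and DESeq2 together called 0 of 8, against 0.0% of all genes, and 1 of the 8 (Mtap) had an unadjusted p below 0.05 by both tools, against 2.48% of all genes. The values ran from -0.12 for Apip to 0.22 for Mtap, with an FDR of 1.00 for each. For Odc1 the value was -0.03 with a 95% interval from -0.46 to 0.41, so a change of up to about that size is not shown to be absent. For Mtap the interval was 0.02 to 0.41 and 6 of 6 mice were higher.

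The interaction of EGF and U46619 asks whether the change with both differs from the sum of the changes with each. Together the tools called 0 of 8, against 0.0% of all genes, and 0 of the 8 had an unadjusted p below 0.05 by both. The median was -0.19 for the 8 and 0.03 for all genes. Azin1 had the largest value, -0.39 (SE 0.21, 95% interval -0.80 to 0.03, FDR = 1.00), below 0 in 6 of 6 mice. Srm stood at -0.36 (SE 0.24, 95% interval -0.83 to 0.11), Amd1 at -0.28 and Odc1 at -0.21 (95% interval -0.82 to 0.41). For Mtap it was 0.04 (SE 0.14, 95% interval -0.24 to 0.31). No gene of the 8 thus departed from a sum of the log2-fold changes by more than this test could tell from 0.

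AngII added to EGF or to EGF+U46619 gave no call. EGF+AngII against EGF had 0 of 8 by both tools and 0.0% of all genes, with 0 of the 8 below an unadjusted 0.05 and values from -0.14 (Mri1) to 0.13 (Odc1). EGF+AngII+U46619 against EGF+U46619 had 0 of 8 as well, and 0.0% of all genes, with 0 of the 8 below an unadjusted 0.05. The values there ran from -0.04 for Mtap to 0.31 for Mri1, and the lowest FDR was 0.801. Mri1 went from 0.31 to -0.04 without the EGF+AngII+U46619 library of mouse 3.

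Lists of further pathway genes were read the same way. They name 56 genes, the 8 included, of which 3 (Sms, Sat1 and Oaz2) lie on chromosomes X and 9 and are listed at 0. Of the 56, 42 were tested at 24 h. With U46619 25 of 42 were called, 18 higher and 7 lower, with EGF+U46619 29 (18 higher and 11 lower) and with EGF+AngII+U46619 27 (16 higher and 11 lower). These counts include the 8 genes, and 27.6%, 33.1% and 34.3% of all tested genes were called in these comparisons. EGF and AngII alone gave 0 each by both tools, and EGF+AngII 2 of 42, against 3.11% of all genes. Both were lower: Atp13a2 at -0.77 (SE 0.21, FDR = 0.0429) and Azin2 at -0.86 (SE 0.21, FDR = 0.0401), each lower in 6 of 6 mice.

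All 4 synthesis genes tested were called higher in each U46619 comparison, with medians of 1.06, 1.24 and 1.33 for U46619, EGF+U46619 and EGF+AngII+U46619. Of all genes 13.5%, 17.0% and 18.1% were called higher in these comparisons. The fourth synthesis gene, Amd2, had 1.13 (SE 0.24, FDR = 0.000733, 6 of 6 mice) with U46619, but it shares reads with Amd1 and is not a separate finding. Of the genes listed under polyamine breakdown, 2 of 3 tested were called lower with U46619. With EGF+U46619 3 of 3 were called lower and with EGF+AngII+U46619 2 of 3, and Sat1 cannot be read. These genes were listed by name, and their part in polyamine breakdown in these cells was not tested. Of all genes 14.1% were called lower with U46619, 16.1% with EGF+U46619 and 2373 of 14653 with EGF+AngII+U46619. Sat2, an acetyltransferase, fell by a log2-fold change of -0.93 (SE 0.19, FDR = 0.000325, 6 of 6 mice) with U46619 and -1.13 (SE 0.19, FDR = 2.5e-05, 6 of 6) with EGF+U46619. The spermine oxidase gene Smox fell by -0.65 (SE 0.23, FDR = 0.0313, 5 of 6) and -0.80 (SE 0.24, FDR = 0.00733, 5 of 6) in these comparisons, and Paox by -0.48 (SE 0.17, FDR = 0.024, 5 of 6) in the second. In the list of ODC antizymes and antizyme inhibitors, Azin1 rose in the 3 comparisons and Oaz1 was not called. Azin2 was not called with U46619 alone (-0.42, SE 0.21, FDR = 0.119, lower in 6 of 6 mice). It fell by -1.06 (SE 0.21, FDR = 0.000211, 6 of 6 mice) with EGF+U46619 and by -0.78 (SE 0.21, FDR = 0.00321, 6 of 6) with EGF+AngII+U46619, and it was also called without U46619, in the EGF+AngII group.

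Transport genes went both ways. Of 5 tested, 4 were called with U46619 and 4 with EGF+U46619, 2 in each direction, and 3 with EGF+AngII+U46619, where 27.6%, 33.1% and 34.3% of all genes were called. Atp13a3, which codes for a polyamine uptake pump, rose by 0.77 (SE 0.26, FDR = 0.0227, 6 of 6 mice) with U46619. The lysosomal exporter gene Atp13a2 fell by -1.03 (SE 0.21, FDR = 0.000336, 6 of 6) there. The ornithine supply list had 4, 5 and 5 of 6 called in the same 3 comparisons. Its arginine transporters moved in opposite directions with U46619: Slc7a1 rose by 1.18 (SE 0.22, FDR = 0.000187, 6 of 6 mice) and Slc7a2 fell by -1.18 (SE 0.23, FDR = 0.000235, 6 of 6). Aldh18a1, which makes the precursor of ornithine from glutamate, rose by 0.76 (SE 0.15, FDR = 0.000322, 6 of 6).

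In the methylthioadenosine salvage list 5 of 8 were called with U46619 and 5 with EGF+U46619, 3 higher and 2 lower, and 4 with EGF+AngII+U46619, 3 higher and 1 lower. The shares of all genes called in these comparisons, 27.6%, 33.1% and 34.3%, also stand beside the methionine cycle and hypusination counts. Beside Mtap, Enoph1 rose by 0.40 (SE 0.11, FDR = 0.00414, 6 of 6 mice) and the aminotransferase gene Got1 by 1.18 (SE 0.17, FDR = 1.21e-05, 6 of 6) with U46619. Beside Adi1, Kyat1 fell by -0.49 (SE 0.18, FDR = 0.0341, 6 of 6). The salvage list as a whole thus went both ways, with a median of 0.10 against -0.06 for all genes. Of 8 methionine cycle genes tested, 3 were called higher with U46619, among them Ahcy at 0.48 (SE 0.17, FDR = 0.0312, 5 of 6 mice). With EGF+U46619 4 were called, 3 higher and 1 lower, and with EGF+AngII+U46619 5, 2 higher and 3 lower. The 4 hypusination genes are Dhps and Dohh, for enzymes that modify a translation factor with a group made from spermidine, and Eif5a and Eif5a2, for the factor. Only Eif5a was called: it rose by 0.78 (SE 0.18, FDR = 0.00151, 6 of 6 mice) with U46619 and 1.16 (SE 0.19, FDR = 1.2e-05, 6 of 6) with EGF+AngII+U46619. Myc, the best known activator of Odc1 and Srm, rose by 1.33 (SE 0.24, FDR = 0.000119, 6 of 6) with U46619 and 1.54 (SE 0.24, FDR = 1.29e-05, 6 of 6) with EGF+U46619.

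**Figure D3:**
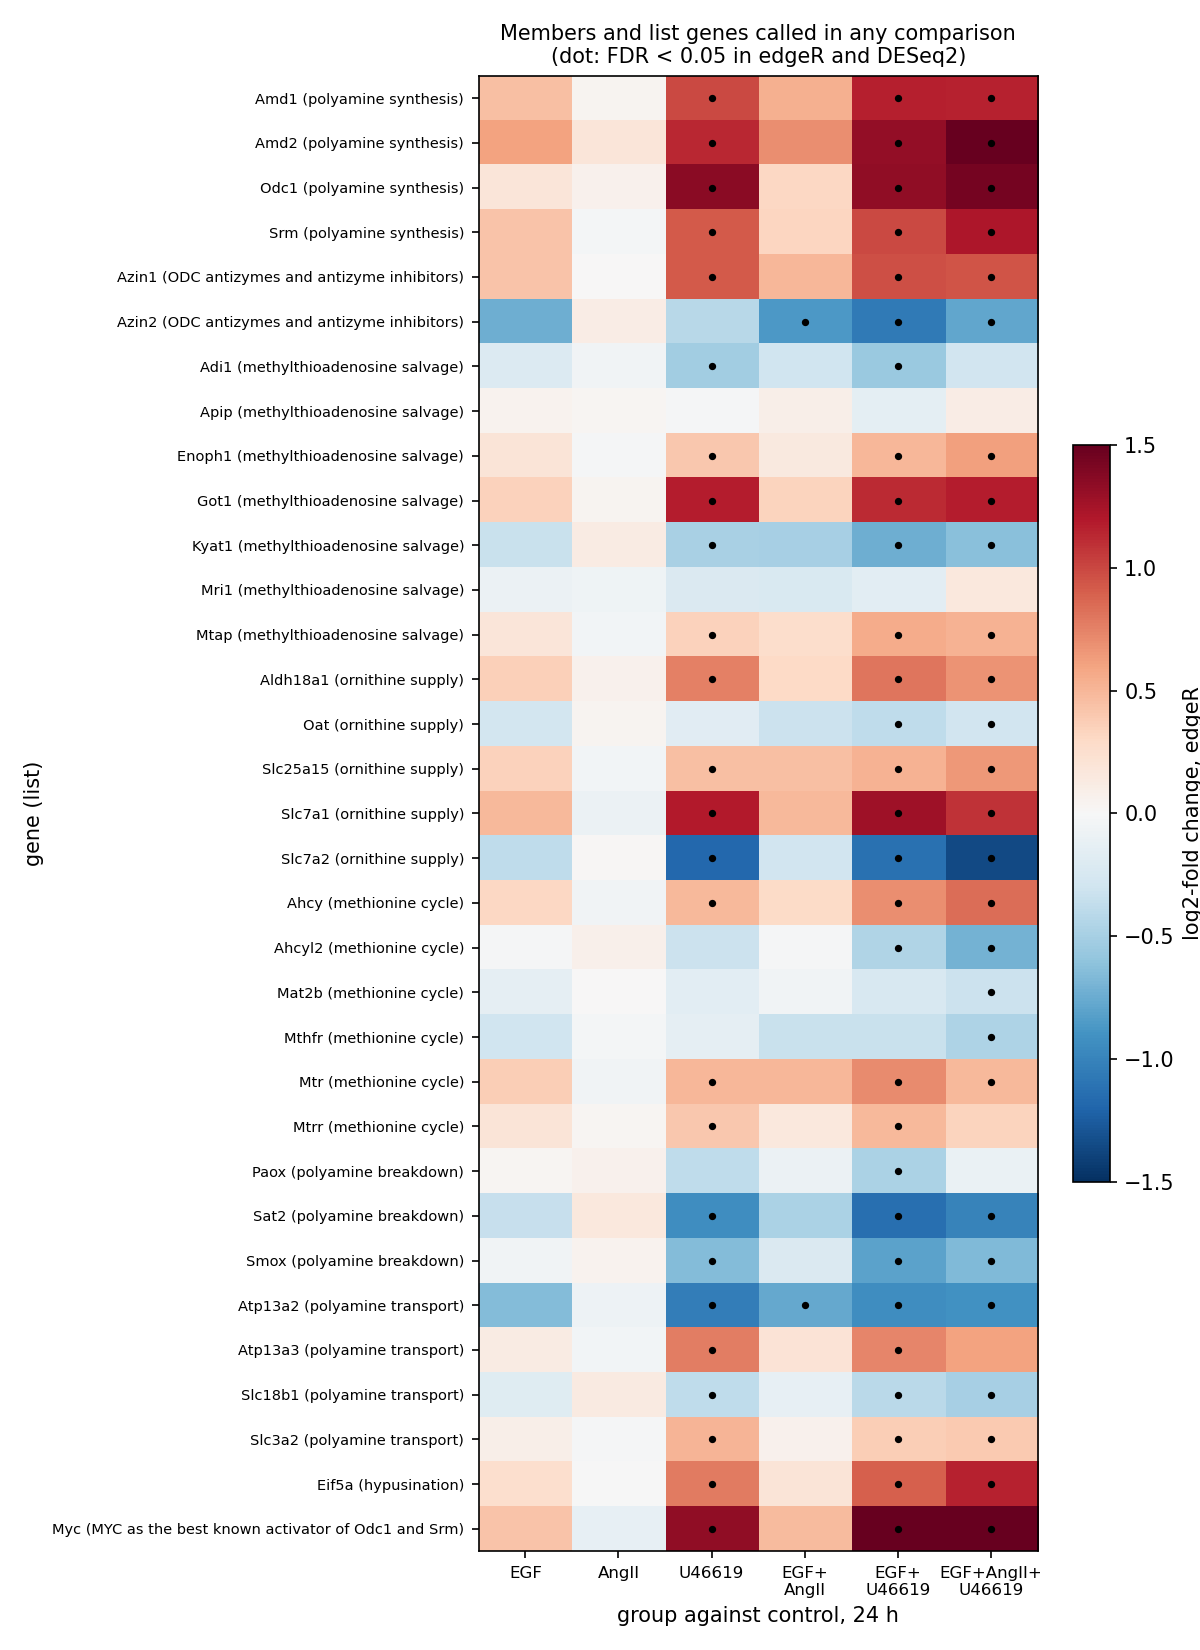
Log2-fold change against control at 24 h (colour, ending at 1.5 in each direction) of the 8 genes and of the list genes called in any comparison, with a dot where called. The AngII column holds no dot, and Sat2 (-0.93) and Slc7a2 (-1.18) fell with U46619 while Got1 (1.18) and Slc7a1 (1.18) rose.

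Markers of dividing cells, smooth muscle, fibroblasts and leukocytes moved in the same groups. In bulk RNA, fewer cells of a type and less RNA per cell cannot be told apart. The 5 dividing cell markers, all tested and with Pcna the most abundant, summed to 101.4, 194 and 335 FPM (lowest, median, highest) in the 24 h controls and to 314, 528 and 1234 FPM with U46619. With EGF+U46619 they summed to 332, 848 and 1646 FPM and with EGF+AngII+U46619 to 412, 727 and 1785 FPM. Of the 5, 2 were called higher with U46619 (Mcm5 at 1.79 and Pcna at 1.19) and 5 with each of the other 2. The sums were also high with EGF (395, 535 and 1050 FPM) and EGF+AngII (405, 591 and 1475 FPM), and AngII gave 93.4, 207 and 338 FPM. EGF+AngII had 2 of 5 called higher (Mcm5 at 1.57 and Pcna at 1.16).

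The 4 smooth muscle markers tested summed to 4417, 11968 and 15181 FPM with U46619, 1716, 9686 and 13046 FPM with EGF+U46619 and 3332, 9082 and 15966 FPM with EGF+AngII+U46619. These sums are mostly Acta2, which rose by 2.05, 1.62 and 1.88 in these groups. Of the other 3, Lmod1 rose with U46619 (0.84) and Smtn with EGF+AngII+U46619 (0.48). Myh11 was called in none of them, with 0.29, -0.28 and -0.22, so 2, 1 and 2 of 4 were called. The sums were 428, 1713 and 9098 FPM with EGF, 1258, 3075 and 5428 FPM with AngII and 458, 2028 and 9708 FPM with EGF+AngII. The 5 fibroblast markers went down: 4 of 5 were called lower with U46619 and 5 of 5 with EGF+U46619 and with EGF+AngII+U46619. They summed to 159.01, 292 and 1863 FPM, to 163.7, 287 and 969 FPM and to 152.2, 294 and 603 FPM in that order. EGF gave 403, 671 and 1605 FPM, AngII 372, 593 and 3940 FPM and EGF+AngII 388, 662 and 1793 FPM.

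Of 5 leukocyte markers 3 were tested at 24 h, with Lyz2 the most abundant, and they summed to 20.9, 74.5 and 114 FPM in the controls and to 23.2, 36.4 and 76.6 FPM with U46619. Lyz2 fell by -1.31 and Csf1r rose by 1.08 in that comparison. The sums were 22.0, 30.9 and 61.9 FPM with EGF+U46619 and 20.1, 35.3 and 65.4 FPM with EGF+AngII+U46619. They were 18.5, 50.01 and 106 FPM with EGF, 21.0, 73.9 and 114 FPM with AngII and 17.5, 48.3 and 108 FPM with EGF+AngII. No endothelial marker was called by edgeR and DESeq2 together in any 24 h comparison. The endothelial sums were 2.20, 124 and 1030 FPM with U46619 and 1.70, 132 and 1290 FPM with EGF+U46619. With EGF+AngII+U46619 they were 1.57, 116 and 1137 FPM. The range within each of these groups was far wider than the differences between their medians. The part of these marker lists in the results for the 8 genes was not tested.

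At 48 h, with the labelled mouse as the replicate block, Azin1 was the 1 gene of the 8 called. With the culture set as the block, Apip was also called with U46619 and with EGF+U46619, and Mtap with EGF+U46619, as given below. Libraries of the same culture set correlated at a median r of 0.835, those of the same mouse label in other sets at 0.112. With EGF+U46619 1 of the 8 was called, higher, against 6.3% of 15796 tested genes and 3.53% called higher. The median log2-fold change was 0.14 for the 8 and -0.03 for all genes. Against EGF, EGF+U46619 also had 1 of the 8 called higher, against 4.43% of all genes and 2.41% called higher, with medians of 0.04 and -0.03. With U46619 alone edgeR and DESeq2 together called 0 of 8, against 3.7% of all genes, and 2 of the 8 had an unadjusted p below 0.05 by both tools, against 21.4% of all genes.

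Azin1 levels at 48 h were 88.7, 136 and 158.7 FPM (lowest, median, highest) in the 10 controls. The 5 U46619 libraries of sets B1-1 to B1-5 had 225, 125, 131, 183.1 and 108 FPM, and those with EGF+U46619 223, 137, 140, 188.7 and 107 FPM. The controls of the same sets had 158.7, 88.7, 88.7, 137 and 97.2 FPM, so each treated library was above its own control while the groups overlapped. For EGF+U46619 the log2-fold change was 0.38 (SE 0.10, FDR = 0.0211, 5 of 5 sets), and 0.48 within the first batch alone. Against EGF it was 0.40 (SE 0.10, FDR = 0.0198, 5 of 5), and 0.35 within the first batch. For U46619 it was 0.33 (SE 0.10, FDR = 0.0611 in edgeR and 0.035 in DESeq2, 5 of 5), and 0.43 within the first batch, where it was called.

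These 48 h calls depended on the design. For EGF+U46619 against control Azin1 was not called without set B1-1 (0.30), B1-2 (0.34), B1-3 (0.34) or B1-4 (0.38), with no filter on low values (0.38) or with no replicate block (0.34). Without set B2-1 Apip was called beside it at -0.44, which made the count 2. For EGF+U46619 against EGF it was not called without set B1-1 (0.32), B1-2 (0.39), B1-3 (0.40) or B1-4 (0.41), with no filter (0.39) or with no block (0.35). For U46619 it was called without set B1-5 (0.41), B2-4 (0.40) or B2-6 (0.35) and without the control library of B2-4 alone (0.39). With the culture set as the replicate block in place of the labelled mouse, EGF+U46619 had 3 genes called against control (Azin1 at 0.40, Mtap at 0.23 and Apip at -0.36) and 2 against EGF (Azin1 at 0.41 and Apip at -0.33). With that block U46619 had 2 (Azin1 at 0.35 and Apip at -0.32). Of the 15796 tested genes the same block gave 2170, 1905 and 1546 calls in these comparisons. Shares of all genes under the other alternatives are not printed here, and those given above are no scale for their counts.

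Apip had 17.8, 27.1 and 36.9 FPM in the 48 h controls. With U46619 its 5 libraries held 17.3, 24.6, 24.1, 22.1 and 22.5 FPM, with EGF+U46619 15.7, 24.7, 22.3, 22.4 and 22.8 FPM, and the controls of the same sets 24.3, 25.1, 36.9, 33.7 and 27.7 FPM. Every treated library was thus lower than its own control. The log2-fold change was -0.36 (SE 0.15, FDR = 0.148, lower in 5 of 5 sets) with U46619 and -0.42 within the first batch. For EGF+U46619 it was -0.39 (SE 0.15, FDR = 0.0927, lower in 5 of 5), and within the first batch -0.45, where it was called.

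Odc1 at 48 h shows how far the batches differ. Its control level was 200 ± 59.4 FPM (SD, n = 5) in the first batch and 312 ± 133 FPM in the second. The U46619 libraries had 267, 229, 197, 195 and 147 FPM and those with EGF+U46619 256, 216, 184.9, 174.9 and 129 FPM, against 244, 170.1, 167.4, 281 and 139 FPM in the controls of their sets. With both batches fitted together the U46619 value was -0.28 (SE 0.26, FDR = 0.552) although 4 of 5 sets were higher. Within the first batch it was 0.08, and with the culture set as the block 0.12. EGF+U46619 gave -0.39 (SE 0.26, FDR = 0.369) in the joint design, -0.03 within the first batch and 0.01 with the set as the block. The part of the batch difference of the controls in the pooled Odc1 values was not tested. AngII gave 466, 424, 370, 241 and 127 FPM and 0.36 (SE 0.25, FDR = 1.00, higher in 2 of 5 sets), 0.08 within the second batch and 0.02 with the culture set as the block. Mtap behaved alike: its controls had 61.5 ± 5.40 FPM in the first batch and 81.9 ± 9.38 FPM in the second. For U46619 its value was 0.02 (SE 0.11, FDR = 0.929) pooled, 0.20 within the first batch and 0.19 with the set as the block, with 5 of 5 sets higher.

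**Figure D4:**
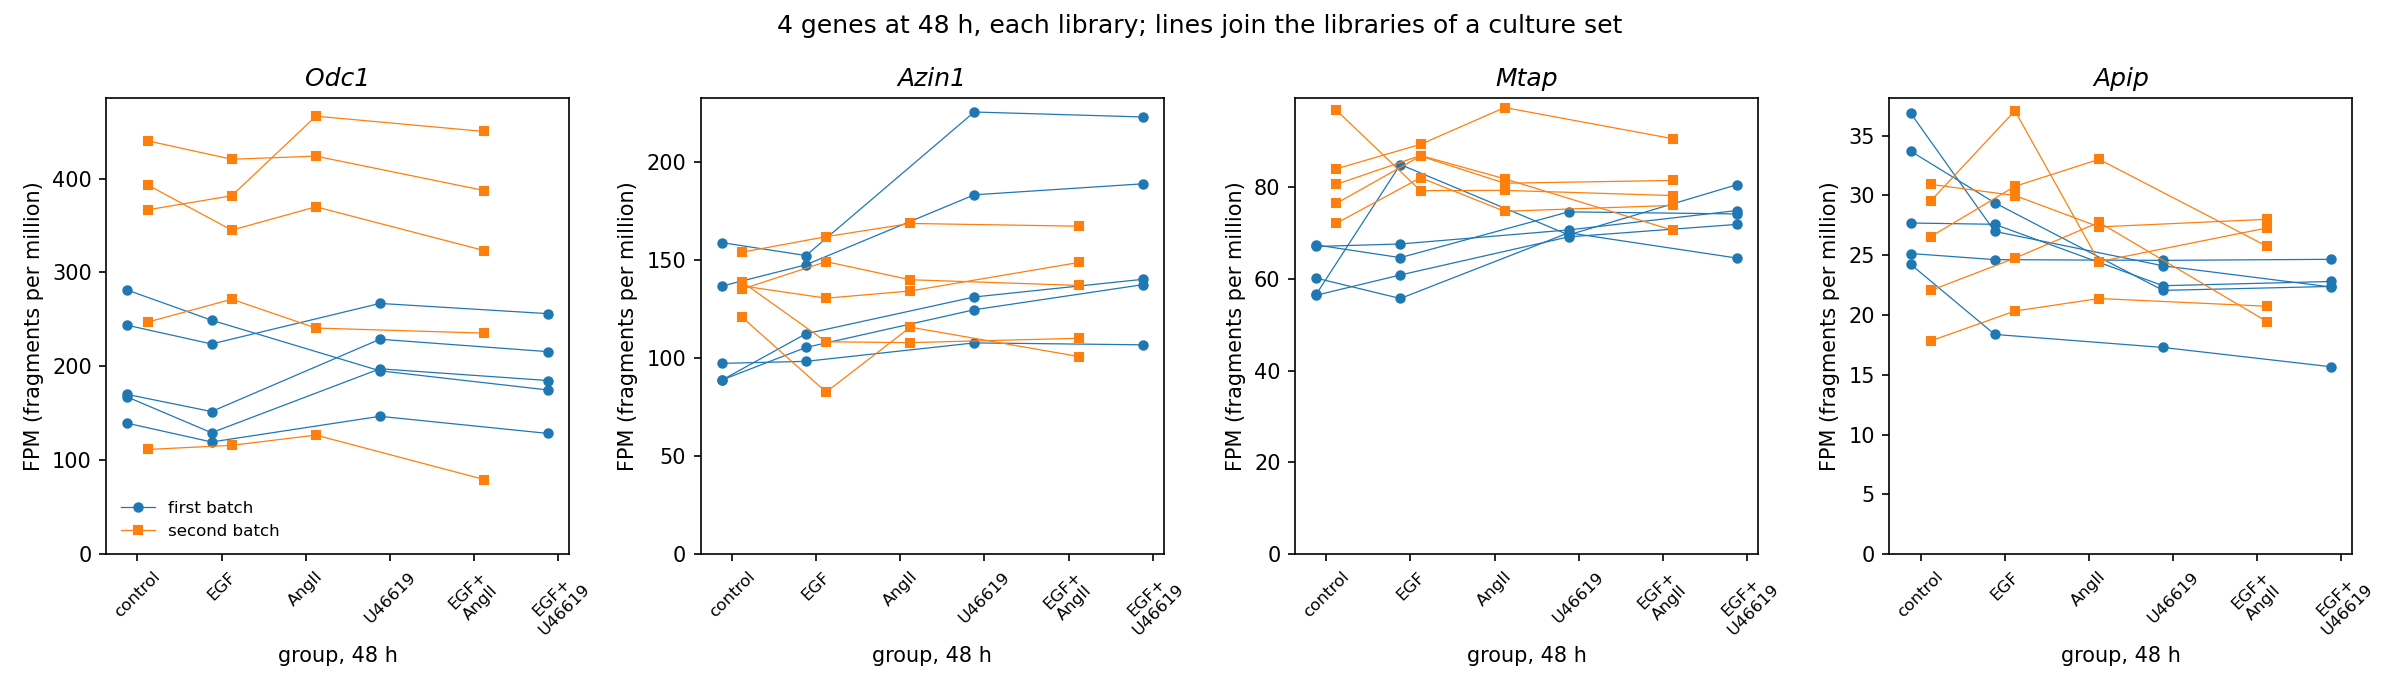
Level (FPM) of Odc1, Azin1, Mtap and Apip in each 48 h library, with lines joining the libraries of a culture set and colours for the 2 batches. The Odc1 controls average 200 FPM in the first batch and 312 FPM in the second, and all 5 Azin1 lines rise from control to U46619.

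The remaining 48 h comparisons called none of the 8 by edgeR and DESeq2 together. EGF against control had 0 of 8 and 0.0% of all genes, with 0 of the 8 below an unadjusted 0.05. Its values ran from -0.09 for Odc1 to 0.13 for Srm. Within the batches Azin1 was at 0.13 in the first and -0.16 in the second, Apip at -0.22 and 0.17, and Adi1 at -0.11 and 0.20. AngII had 0 of 8 and 0.0% of all genes, and EGF+AngII 0 of 8 and 0.0%, each with 0 of the 8 below an unadjusted 0.05. The pooled AngII values ran from -0.13 (Mri1, 0.08 within the second batch) to 0.36 (Odc1, 0.08 within the second batch). Those of EGF+AngII ran from -0.26 (Mri1, -0.06 within the second batch) to 0.18 (Adi1, 0.09 within the second batch). EGF+U46619 against U46619 and the interaction gave 0 of 8 and 0.0% each, also with 0 below an unadjusted 0.05. Some differences had the same sign in every culture set: EGF+U46619 was below U46619 for Odc1 in 5 of 5 sets, with -0.11 pooled and -0.11 with the set as the block. The interaction was above 0 in 5 of 5 sets for Odc1 and Apip, with 0.09 and 0.18 within the first batch and -0.02 and -0.02 pooled. None was called with the set as the block or within the first batch. EGF+AngII against EGF gave 0 of 8 and 0.0%, with 1 of the 8 (Mri1) below an unadjusted 0.05, against 3.43% of all genes, at -0.39 (SE 0.18, FDR = 0.968, lower in 4 of 5 sets) and -0.23 within the second batch.

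For Amd1 and Srm the 48 h values were small. Amd1 with EGF+U46619 held 89.7, 71.7, 84.2, 94.5 and 87.0 FPM, against 65.9, 71.8 and 121 FPM (lowest, median, highest) in the controls, and its log2-fold change was 0.21 (SE 0.11, FDR = 0.245, higher in 5 of 5 sets) and 0.22 within the first batch. Srm with EGF+U46619 held 80.0, 125, 89.1, 80.4 and 95.9 FPM, against 64.5, 73.2 and 95.9 FPM, with 0.22 (SE 0.13, FDR = 0.296, higher in 4 of 5) and 0.26 within the first batch. Neither was called. Mri1 with EGF+U46619 held 26.5, 50.3, 40.3, 46.7 and 53.7 FPM, with 0.31 (SE 0.18, FDR = 0.283, higher in 3 of 5) pooled and 0.12 within the first batch. Adi1 held 27.2, 39.6, 22.0, 26.7 and 22.1 FPM, with -0.17 (SE 0.14, FDR = 0.463, lower in 3 of 5) pooled, -0.08 within the first batch and -0.01 with the culture set as the block. The fall of Adi1 seen at 24 h was thus not among the 48 h calls. None of the 40 neighbouring pairs of group means at 48 h differed by more than the larger SD. That SD leaves out the pairing by culture set. For Odc1 the order ran from AngII (326 ± 140 FPM, n = 5) to EGF+U46619 (192 ± 47.5, n = 5). These 2 groups are from different batches, whose controls differ in the same direction (312 and 200 FPM). Batch and treatment cannot be told apart in this order. For Azin1 it ran from EGF+U46619 (159.1 ± 46.1, n = 5, first batch) to EGF (125 ± 27.0, n = 10, both batches). Per kb, the 48 h controls had Odc1 first at 75.2 ± 33.3 FPM, then Srm at 48.1 ± 7.31 and Apip at 27.5 ± 5.61.

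Of the 43 list genes tested at 48 h, 3 were called with U46619, 5 with EGF+U46619 and 4 with EGF+U46619 against EGF, where 3.7%, 6.3% and 4.43% of all genes were called. Got1 rose by 0.65 (SE 0.13, FDR = 0.00243, 5 of 5 sets) with U46619, Myc by 0.84 (SE 0.17, FDR = 0.00434, 5 of 5) and Aldh18a1 by 0.45 (SE 0.13, FDR = 0.0369, 4 of 5). With EGF+U46619 the 5 were these 3 and Azin1, all higher, and Kyat1, lower at -0.54 (SE 0.13, FDR = 0.00824, 5 of 5). The other comparisons at 48 h called 0 list genes by both tools. Of the markers, only Pi16 of the fibroblast list was called at 48 h: it fell by -1.58 with U46619 and -1.77 with EGF+U46619. The 5 fibroblast markers summed to 175.3, 239, 489, 230 and 1613 FPM in the U46619 libraries and to 213, 241, 485, 254 and 1383 FPM with EGF+U46619. The controls of the same sets had 334, 873, 714, 254 and 2384 FPM. Their part in the Azin1 result was not tested.

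Genes with a pattern most like that of 3 of the enzymes were sought over the 42 libraries of 24 h, among 10162 genes, as the correlation of log2 levels after the mean of each mouse was taken off. The libraries share 6 mice, so no p is given. For Odc1 the nearest were Timm17a (r = 0.971), Plaur (r = 0.970) and Usp39 (r = 0.965). For Srm they were Eif5a (r = 0.967), Ldha (r = 0.962) and Shmt2 (r = 0.960), and for Mtap Myc (r = 0.923), Ddx27 (r = 0.920) and Cct6a (r = 0.912). These genes were named after their values were seen. Among the 8, the closest pair was Amd1 with Azin1 (r = 0.940), then Odc1 with Amd1 (r = 0.880) and Odc1 with Srm (r = 0.879). Adi1 ran against Azin1 (r = -0.813) and Amd1 (r = -0.787), and went with Mri1 (r = 0.681). The EGF+AngII+U46619 library of mouse 3 was far above the rest of its group for both Mri1 (214 FPM) and Adi1 (67.2 FPM). Its part in that last r was not tested.

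The counts include reads that align to several places, so near copies of a gene share its reads. Amd1 has 5 copies in the table with at least 95% identity over at least 200 bp, and their mean counts sum to 35.8% of its own. The largest, the coding gene Amd2, matches 99.6% of 3202 bp and had 25.3% of the Amd1 counts at 24 h. Amd2 rose with the 3 U46619 groups by 1.13, 1.32 and 1.51, next to 1.00, 1.16 and 1.16 for Amd1, so the share of each gene in the rise cannot be told apart here. The pseudogene Amd-ps3 had 6.46% of the Amd1 counts and gave 1.12, 1.28 and 1.12. With Amd-ps4 as the fourth, the share of Amd1 in the sum of the 4 had a median of 75.7% in the 24 h controls, 74.0% with U46619, 73.2% with EGF+U46619 and 73.2% with EGF+AngII+U46619. In the last group the lowest library had 62.8%, while the lowest in the 24 h controls was 72.7%. Odc1 has 7 such copies, which together reach 2.70% of its counts, though the copies Gm17709 and Gm9115 lie where the table has only 0. For Azin1 the single match is the antisense gene Gm49077, which shares 358 bp of exon (5.72%) on the opposite strand and has 0.112% of its counts. Srm, Mtap, Mri1, Apip and Adi1 have none.

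Promoters were read because Odc1 and Amd1 rose together. RefSeq promoters (GRCm38.p6, 250 bases before to 50 after the start) were at hand for 5 of the 8 genes: Odc1, Amd1, Mtap, Mri1 and Apip, and not for Srm, Azin1 and Adi1. The letters CACGTG, an E-box as MYC is known to bind, were in none of the 5 windows, and 7.15% of 32851 promoters of that length hold them. Bases outside these windows, such as introns, were not searched, so these genes may hold an E-box elsewhere. The letters GGGCGG, a GC box, searched on both strands, occur 4 times for Odc1, 2 times for Apip, 1 time each for Amd1 and Mri1 and 0 times for Mtap, and 35.7% of all promoters hold at least 1. The Mtap window (chr4:89137120-89137419) lies almost wholly inside the annotated gene, which starts at 89137122. Nearly all bases ahead of that annotated start were thus not searched for Mtap. The Odc1 window has 78.0% G and C, Apip 66.3%, Amd1 63.0%, Mtap 57.0% and Mri1 56.3%, where the median of all is 52.7%. A match of letters is a description and not a binding site. Of the bases before the RefSeq start, those ahead of the first exon in the gene annotation are shown for the 2 synthesis genes with GC boxes, with each box in capitals. For Odc1 the stretch therefore ends where the annotated gene starts, short of the RefSeq start. The positions are chr12:17544623-17544793 (plus strand) with 3 boxes for Odc1 and chr10:40302189-40302438 (minus strand) with 1 box for Amd1.
Odc1: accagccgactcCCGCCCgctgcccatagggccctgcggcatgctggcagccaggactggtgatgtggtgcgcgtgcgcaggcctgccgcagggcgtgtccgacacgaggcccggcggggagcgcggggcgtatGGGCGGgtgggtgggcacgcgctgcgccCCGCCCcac
Amd1: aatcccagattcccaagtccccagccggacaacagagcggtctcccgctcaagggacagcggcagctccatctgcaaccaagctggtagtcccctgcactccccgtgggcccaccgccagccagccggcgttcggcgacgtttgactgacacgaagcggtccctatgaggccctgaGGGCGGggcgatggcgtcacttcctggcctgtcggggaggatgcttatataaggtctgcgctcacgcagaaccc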

How the data were processed

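Paired-end RNA-seq counts per gene, as deposited by the authors, were used without change. The authors aligned reads to mm10 with HISAT2 2.1.0 and counted them with featureCounts, reads with several alignments included. The deposited values are whole numbers that are not normalized. The members and lists were chosen with earlier results of these data known.

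The 24 h and 48 h libraries were fitted apart. Genes with low counts were removed by filterByExpr, which kept 14653 genes at 24 h and 15796 at 48 h, and calls also needed a gene to be kept at both times (14528). The design was mouse plus treatment, with 11 comparisons at 24 h and 9 at 48 h. Tests were edgeR 4.0.16 (TMM, quasi-likelihood) and DESeq2 1.42.0 (Wald) in R 4.3.3, with FDR over all tested genes. SE is the log2-fold change over the root of F, and 95% intervals are 1.96 SE wide on each side. Changes per mouse or culture set use log2(FPM + 0.5). Tables and figures were made with Python 3.11.15, numpy 2.4.6, pandas 2.3.3, scipy 1.17.1, matplotlib 3.10.9 and biopython 1.88, and copies were found with BLAST+ 2.17.0.

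Pairing was checked on deviations from group means. All 126 pairs of 24 h libraries of the same mouse had r above 0.1 (lowest 0.366, median 0.800), and 57 of 60 pairs of the same 48 h culture set did (median 0.835). Pairs of 48 h libraries with the same mouse label from different sets did so in 77 of 146 (median 0.112). The methods say that each replicate is from a different mouse, while the labels give 5 mice at 48 h. No library of a group duplicates another (235 pairs, lowest chi-square per degree of freedom 42.9).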

Additional observations from a re-analysis of the deposited data

Results flagged for a closer look

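Of 104 groups of libraries, 8 genes over 13 groups, 10 held a library far from the rest by Dixon's ratio (the gap to the nearest library over the range), where chance would give about 1 in 20 groups. Mouse 3 accounts for 4 of them at 24 h. With EGF+AngII+U46619 it had the ratio 0.908 for Mri1 (214 FPM, others 24.9 to 42.2) and 0.728 for Adi1 (67.2 FPM, others 16.9 to 30.6). For Mri1 it had 0.871 with EGF+AngII (93.4 FPM, others 26.1 to 34.8) and 0.846 with EGF+U46619 (62.8 FPM, others 31.9 to 36.7). Mouse 2 had 0.779 for Amd1 with U46619 at 24 h (216 FPM, others 69.2 to 102). At 48 h Mri1 had 0.857 in set B2-6 with EGF+AngII (49.97 FPM, others 23.9 to 27.6) and 0.774 in set B1-1 with U46619 (28.3 FPM, others 42.1 to 46.1). Set B1-1 had 0.742 for Apip with EGF+U46619 (15.7 FPM, others 22.3 to 24.7). Mtap had 0.722 in set B1-2 with U46619 (74.6 FPM, others 69.1 to 70.6), and Amd1 0.515 in set B2-5 with EGF (120 FPM, others 66.1 to 92.2).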

How the results depend on the processing

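Alternatives left most values near those printed. Most comparisons had a count of 0 to begin with, which leaves little room to move. The number of counts that stayed is therefore no measure of stability. For most alternatives the share of all genes called is not printed, so a changed count cannot be set against it. Of 295 counts of genes called, 264 stayed within 1.5 times and 31 moved, and of 2360 log2-fold changes 2245 kept their call or value, 36 lost a call, 20 gained one, 59 moved and none changed sign with a call. For EGF+AngII against control at 24 h the count of 0 became 1 by DESeq2 alone, 0 to 1 over mice left out and 2 without the EGF+AngII+U46619 library of mouse 3. For EGF+U46619 against EGF at 24 h the count of 5 became 0 with no replicate block 1 to 5 over mice left out and 6 without that library. At 48 h, the count of 0 for U46619 became 1 by DESeq2 alone, 2 with the culture set as the replicate block, 1 in the first batch alone, 0 to 1 over sets left out and 1 without the control library of set B2-4. The count of 1 for EGF+U46619 against control became 0 with no filter, 0 with no replicate block, 3 with the set as the block, 2 in the first batch alone and 0 to 2 over sets left out. Against EGF it became 0 with no filter, 0 with no block, 2 with the set as the block and 0 to 1 over sets left out. DESeq2 size factors in edgeR shifted the median of all genes by at most 0.0178. Leaving out the 2 libraries that stand apart was chosen after the data were seen.

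Mouse and culture cannot be separated beyond the labels, and the 48 h treatments with U46619 and with AngII were never in the same batch. Sms, Sat1 and Oaz2 cannot be read in these files. Counts shared between Amd1 and its copies cannot be divided. RNA levels say nothing of protein, enzyme activity or polyamines.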
